A study of Homo sapiens with 6 samples.

Results

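The genes described here are those of interferon signalling: the sensors of foreign nucleic acid, the interferon receptors with their kinases, the transcription factors they activate, and the genes that interferons induce. Members were chosen by gene symbol from a list of 46. Of these, 40 had a row among the 35820 rows of the deposited count table, and IFNAR1, IFIT5, OAS1, OASL, SAMHD1 and USP18 were not analysed here. The cells were HT1080, a human fibrosarcoma line, grown in medium with fetal bovine serum. Ribosome-depleted total RNA was sequenced in 3 wild-type (WT) libraries and 3 libraries from a TOP3B knockout, made with CRISPR and a guide against exon 2 of TOP3B, which encodes a topoisomerase acting on DNA and RNA. The series asked how TOP3B affects R-loops and transcription. The knockout is 1 clone, E2-2, so every difference below is between that clone and the WT cells. No interferon, virus or nucleic acid treatment is named in the labels for either group.

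Cells sense viral or misplaced nucleic acid with receptors such as MDA5 (IFIH1), TLR3 and cGAS, which signal through MAVS, TRIF and STING. These adaptors activate IRF3 and IRF7, which switch on interferon genes. Secreted type I interferon binds IFNAR1 and IFNAR2, whose kinases TYK2 and JAK1 activate a complex that contains STAT2 and IRF9. This complex binds the interferon-stimulated response element (ISRE) in the promoters of stimulated genes. Interferon-gamma binds IFNGR1 and IFNGR2, and the STAT dimers it activates bind the gamma-activated site (GAS). Many stimulated genes are also transcribed at a low level in cells that have seen no added interferon.

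Promoters are shown for members the results turn on: 2 that fell and have the ISRE core (IFI27 and IFI44), 2 that have it and did not pass the test (IFI6 and OAS3), and TYK2, which fell and has no match. Each line holds the 250 bases before the RefSeq start (GRCh38.p14), read 5′ to 3′ on the gene's strand, with matches in capitals. The motifs searched on both strands were the ISRE core, GAAA and GAAA parted by any 2 bases, and the GAS core TTCNNNGAA, and matches may overlap.

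IFI27 promoter, chr14:94110486-94110735, plus strand: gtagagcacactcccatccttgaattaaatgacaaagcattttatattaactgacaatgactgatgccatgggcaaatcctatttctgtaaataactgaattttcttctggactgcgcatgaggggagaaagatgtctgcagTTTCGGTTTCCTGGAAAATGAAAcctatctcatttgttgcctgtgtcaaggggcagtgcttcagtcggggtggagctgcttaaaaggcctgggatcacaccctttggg

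IFI44 promoter, chr1:78649539-78649788, plus strand: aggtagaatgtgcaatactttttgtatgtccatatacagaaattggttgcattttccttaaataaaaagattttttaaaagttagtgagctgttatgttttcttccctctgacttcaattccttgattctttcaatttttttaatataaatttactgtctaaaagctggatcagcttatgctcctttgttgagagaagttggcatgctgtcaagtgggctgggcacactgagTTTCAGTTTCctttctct

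IFI6 promoter, chr1:27672193-27672442, minus strand: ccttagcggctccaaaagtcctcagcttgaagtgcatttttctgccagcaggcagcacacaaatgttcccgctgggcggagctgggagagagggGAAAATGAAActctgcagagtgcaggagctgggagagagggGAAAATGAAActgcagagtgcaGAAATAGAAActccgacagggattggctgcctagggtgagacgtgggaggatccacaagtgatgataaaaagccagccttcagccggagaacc

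OAS3 promoter, chr12:112938224-112938473, plus strand: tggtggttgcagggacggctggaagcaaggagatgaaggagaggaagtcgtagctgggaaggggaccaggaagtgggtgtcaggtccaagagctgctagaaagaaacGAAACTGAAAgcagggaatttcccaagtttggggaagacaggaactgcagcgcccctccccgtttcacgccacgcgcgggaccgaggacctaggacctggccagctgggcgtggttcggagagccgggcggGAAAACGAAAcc

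TYK2 promoter, chr19:10380573-10380822, minus strand: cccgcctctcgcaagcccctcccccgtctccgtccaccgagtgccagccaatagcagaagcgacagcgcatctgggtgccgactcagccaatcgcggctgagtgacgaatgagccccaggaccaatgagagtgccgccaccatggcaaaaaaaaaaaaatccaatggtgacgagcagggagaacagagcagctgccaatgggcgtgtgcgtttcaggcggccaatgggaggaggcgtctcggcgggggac

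In IFI27 the capitals hold 3 overlapping matches, ISRE cores at -108 to -99 and -95 to -86 and a GAS core at -101 to -93, counted from the start. The IFI44 match lies at -18 to -9. IFI6 has 3 ISRE cores and OAS3 has 2. Over the full window of 300 bases, which adds 50 after the start, 36 of the 46 members had a promoter in the RefSeq table. The ISRE core was in 19 of them (52.8%), against 996 of all 27305 promoters (3.65%). The GAS core was in 8 of the 36 (22.2%), against 7.88% of all promoters. A match describes letters only and is not a tested binding site. Among members that could be tested for a difference, 12 had an ISRE core and a median log2 fold change of -0.11, with 2 lower in the knockout and none higher. The 11 with a promoter but no ISRE core had a median of -0.21, with 1 lower and none higher. Over all genes tested the median was 0.05, with 4.63% called lower and 3.21% higher. IFI44, counted among the 2, passed the filter on low counts through the WT libraries only. STING1, IFNAR2, IRF3, MX2 and OAS2 were tested but had no promoter in the RefSeq table. Members that fell were found both with and without the motif.

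Library totals ranged from 17919112 to 20475280 estimated counts. TOP3B had 536, 376 and 469 counts in WT and 407, 383 and 361 in the knockout, and a small edit need not remove a transcript, so this does not check the labels. The knockout labels carry no replicate number, so knockout replicates are numbered here in their listed order, with replicate 3 the last. Knockout replicate 3 stood apart: over 6544 well-expressed genes, log2 differences from it to the other knockout libraries had SDs of 0.623 and 0.599. The SD between those other knockout libraries was 0.238. Within WT it was 0.268 to 0.327. Mesenchymal markers were abundant in every library, with VIM at 11670 ± 594 CPM (counts scaled to a library of 1000000) in WT and 11520 ± 173 CPM in the knockout (SD, n = 3 each). The summed level of 8 mesenchymal markers was 24130 to 25290 CPM in WT and 15210 to 16670 CPM in the knockout. Markers of interferon-producing plasmacytoid cells summed to at most 0.0512 CPM. The series text names HCT116, a colon line, once for the WT cells, and of 4 colon markers CDX2 and CDH17 were at 0 in all 6 libraries. The 4 summed to 1.37 to 2.12 CPM in WT and 1.08 to 3.17 CPM in the knockout, and 5 epithelial markers to 105 to 117 CPM and 108 to 129 CPM. No label says that the replicates were grown as separate cultures, so the p-values may measure technical spread only.

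Levels between genes are compared in the authors' RPKM, which divides counts by a gene length. The length used is not stated, and the lengths implied by count and RPKM followed no single rule. For JAK1 they were 131525 to 136853 bases, near the annotated locus of 133276 bases. For TYK2 they were 17283 to 17749 bases, well short of its locus of 30148 bases, so the order of levels depends on these lengths. The transcription factors IRF3 and IRF1 were the most abundant members on this scale, while the factors IRF7 and IRF9 were among the lowest. IRF3, the factor that sensors activate, stood at 17.2 ± 3.78 RPKM in WT and 22.7 ± 7.55 RPKM in the knockout (SD, n = 3 each), above 94.5% of the 13965 genes tested. IRF1, an early responder to interferon-gamma, followed with 8.18 ± 0.650 and 7.42 ± 0.679 RPKM, and IFI35, an induced regulator of signalling, with 7.18 ± 0.310 and 5.21 ± 1.15 RPKM. IRF1 was above IFI35 in each of the 6 libraries. STAT2 (3.07 ± 0.284 and 2.32 ± 0.167 RPKM), STING1 (2.50 ± 0.441 and 1.58 ± 0.695 RPKM) and MAVS (means of 1.23 and 2.70 RPKM) came next, and in the knockout their ranges overlapped. All other members were below 2 RPKM on average.

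**Figure D1:**
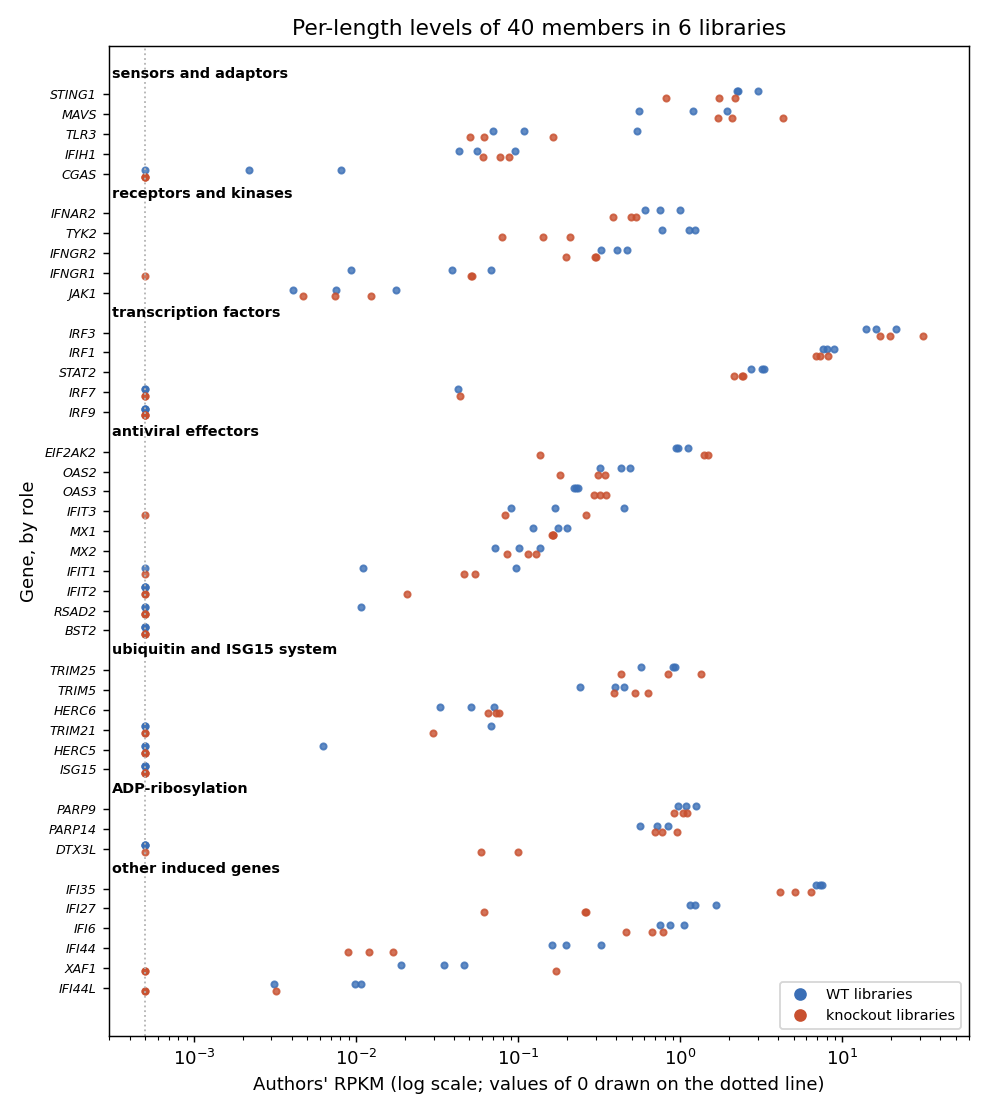
Authors' RPKM (log axis) of the 40 members in each of the 6 libraries, by role, with WT in blue and knockout in red and values of 0 drawn on the dotted line. IRF3, IRF1 and IFI35 are the highest, and ISG15, BST2 and IRF9 are listed at 0 in every library.

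Several well-known stimulated genes were near or at 0. ISG15, which encodes a ubiquitin-like modifier, BST2, the virus tether tetherin, and IRF9, the DNA-binding partner of STAT2, were listed at 0 counts in all 6 libraries. A count of 0 allows up to 3 counts, or 0.146 to 0.167 CPM by library, for counting error only. Whether the division of reads between overlapping or similar genes set these 0 counts was not tested. A same-strand gene overlaps IRF9 in the annotation, and none overlaps BST2. Of 83 ribosomal protein genes, which every cell uses, none was at 0 in all 6 libraries, and 1 was at 0 in at least 1. Being so widely used, these genes cannot test the 0 counts of ISG15, BST2 and IRF9. Of 58 other genes of the pathway, described below, 6 were also at 0 in all 6 libraries, MYD88 among them. A further 9 members were removed by the filter on low counts, and none of them was called when edgeR was run with no filter. Over all libraries IRF7 and HERC5 had 4 counts each, RSAD2 had 5, CGAS and IFIT2 had 7 each, IFI44L had 9, TRIM21 had 10, DTX3L had 29 and XAF1 had 49. The CGAS counts were 0, 2 and 5 in WT and 0 in each knockout library. IFI44L, the neighbour and relative of IFI44, had 3, 1 and 4 counts in WT and 0, 1 and 0 in the knockout. DTX3L was at 0 in WT and had 19, 0 and 10 counts in the knockout. No fold is given for these genes.

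The comparison asked which members differed between the TOP3B knockout and WT. TYK2, a receptor kinase, and the induced genes IFI27 and IFI44 fell, by 6.90-fold to 14.7-fold, and no member rose. The 14.7-fold is that of IFI44, whose knockout values stand at the floor of 3 counts a library, so its size is uncertain. Calls are from edgeR's quasi-likelihood test at a p of 0.05, adjusted over all 13965 genes by the Benjamini-Hochberg method. Of 28 members tested, 3 fell (10.7%) and 25 did not pass. Of all genes tested, 4.63% fell, 3.21% rose and 7.84% were called in either direction. With so few calls among 28 genes the share is close to that background. An unadjusted p under 0.05 was found for 7 members (25.0%), against 24.7% of all genes. The WT and knockout ranges did not overlap in 9 members (32.1%), near the 33.6% of all genes, but their direction was uneven. In all, 8 members lay lower (28.6%, background 17.1%) and 1 lay higher (3.57%, background 16.5%). The median log2 fold change of the members was -0.20 against 0.05 over all genes, with 19 of 28 below 0 (67.9%, background 46.3%). These are descriptions, since members were chosen with earlier results of these data known. Members that passed the filter on low counts through 1 group also had to differ. IFI44 was above that filter's cut-off of 0.498 CPM in the WT libraries only, and 23 of the 28 were above it in all 6 libraries. IFI27 was above it in 3 WT and 2 knockout libraries. In bulk RNA, fewer cells that express a gene and less RNA per cell cannot be told apart.

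**Figure D2:**
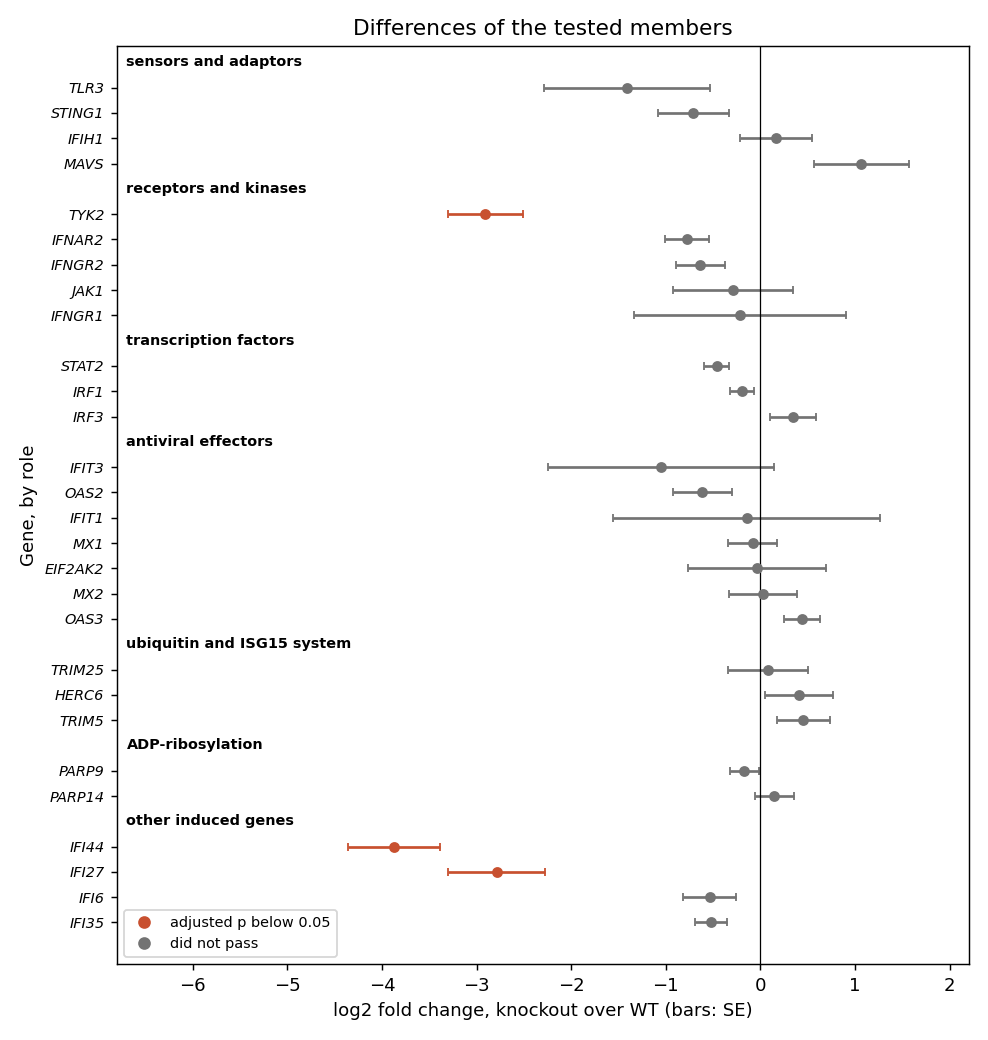
log2 fold change, knockout over WT, with SE bars, of the 28 tested members by role, where red points passed an adjusted p of 0.05. TYK2, IFI44 and IFI27 lie between -3.87 and -2.79, and the other 25 lie between -1.41 and 1.07.

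Among the sensors and adaptors, none of the 4 tested members passed edgeR's test, and none had an unadjusted p under 0.05 or passed in DESeq2. MAVS, the mitochondrial adaptor of the RNA sensors, was at 58.3, 16.8 and 35.1 CPM in WT replicates 1 to 3 and at 50.2, 60.6 and 120.0 CPM in knockout replicates 1 to 3. The groups overlapped, and knockout replicate 3 was the highest library. The log2 fold change was 1.07 ± 0.50 (SE, edgeR adjusted p = 0.244), which became 0.58 when knockout replicate 3 was left out. STING1, the adaptor of cGAS, was at 12.2, 16.5 and 11.9 CPM in WT and 11.6, 9.16 and 4.14 CPM in the knockout. All knockout values lay below all WT values, with the lowest in replicate 3, and the log2 fold change of -0.71 ± 0.37 did not pass (edgeR adjusted p = 0.295). TLR3, the endosomal sensor of double-stranded RNA, had 114 counts in WT replicate 2 and 11 to 34 in every other library. Its log2 fold change of -1.41 ± 0.88 rested on that library and was 0.02 without it. IFIH1, which senses long double-stranded RNA, was at 2.11 ± 0.912 and 2.36 ± 0.359 CPM (SD, n = 3 each) and did not pass.

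All 5 tested receptors and kinases had a log2 fold change below 0, as had 46.3% of all genes. The fall of 1 was called, against 4.63% of all genes. Direction was not settled for 2 of the 5. IFNGR1 turned to 0.43 without WT replicate 2 and 0.36 without knockout replicate 3, and JAK1 to 0.42 without WT replicate 1. TYK2 encodes the kinase bound to IFNAR1, and also serves receptors of interleukins such as IL-12 and IL-10. It was at 20.1, 22.1 and 13.4 CPM in WT and at 3.59, 2.47 and 1.33 CPM in the knockout. Each WT library was several-fold above each knockout library. TYK2 fell by 2.91 ± 0.39 (SE) on the log2 scale, or 7.50-fold (edgeR adjusted p = 0.0101, and 4.39e-11 to 0.0550 under other settings). The highest of these came without WT replicate 2, the only left-out library that ended the call, where the log2 fold change was -2.76. Without knockout replicate 3 the fall was called at -2.62.

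The TYK2 gene spans 10350529 to 10380676 of chromosome 19, minus strand (GENCODE v29, GRCh38), and no other annotated gene overlaps it. Of 19 tested genes within 250 kb, a window chosen after the values were seen, 1 rose and 1 fell. SLC44A2, a choline transporter-like gene, was at 133 ± 7.46 CPM in WT and 85.9 ± 11.1 CPM in the knockout, with a log2 fold change of -0.63 ± 0.12. CDKN2D, a cell cycle inhibitor, had a log2 fold change of 0.77 ± 0.18. The nearest tested neighbours did not pass: ICAM3 on one side had a log2 fold change of -0.55 ± 0.36 and CDC37, a kinase chaperone, on the other had 0.21 ± 0.34. SLC44A2 had the lowest log2 fold change among the 19 neighbours, far above that of TYK2.

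IFNAR2, the signalling chain of the type I interferon receptor, was at 22.2, 18.1 and 29.1 CPM in WT and 15.5, 14.4 and 10.6 CPM in the knockout. The groups did not overlap, and the log2 fold change was -0.78 ± 0.23 (edgeR adjusted p = 0.0980, 0.0246 in DESeq2, and at most 0.254 under other settings). IFNGR2, the accessory chain for interferon-gamma, was at 13.8, 16.2 and 10.9 CPM in WT and 10.0, 10.1 and 6.24 CPM in the knockout. These groups did not overlap either, and the log2 fold change of -0.63 ± 0.26 did not pass (edgeR adjusted p = 0.190). JAK1, the partner of TYK2, and IFNGR1, the ligand-binding chain for interferon-gamma, had few counts. JAK1 had 42, 21 and 11 counts in WT and 33, 20 and 12 in the knockout, and IFNGR1 had 4, 29 and 17 against 22, 22 and 0. Their groups overlapped, and the log2 fold changes of -0.29 ± 0.63 and -0.21 ± 1.12 (SE) leave the direction of both unsettled.

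None of the 3 tested transcription factors passed edgeR's test, while STAT2 alone passed in DESeq2 and at an unadjusted p of 0.05. STAT2, the interferon-specific signal transducer, was at 47.1, 46.9 and 39.1 CPM in WT and 30.1, 34.5 and 32.0 CPM in the knockout. The groups did not overlap. The log2 fold change was -0.46 ± 0.13 (edgeR adjusted p = 0.0834, 0.0115 in DESeq2, and at most 0.243 under other settings). IRF3 was at 88.9, 59.4 and 65.8 CPM in WT and 70.0, 80.5 and 121 CPM in the knockout, with overlapping groups and a log2 fold change of 0.34 ± 0.24. BCL2L12 overlaps IRF3 on the other strand, and the sources used here do not say whether counting used strand. IRF1 was at 56.4 ± 3.71 CPM in WT and 49.3 ± 5.67 CPM in the knockout (SD, n = 3 each) and did not pass.

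**Figure D3:**
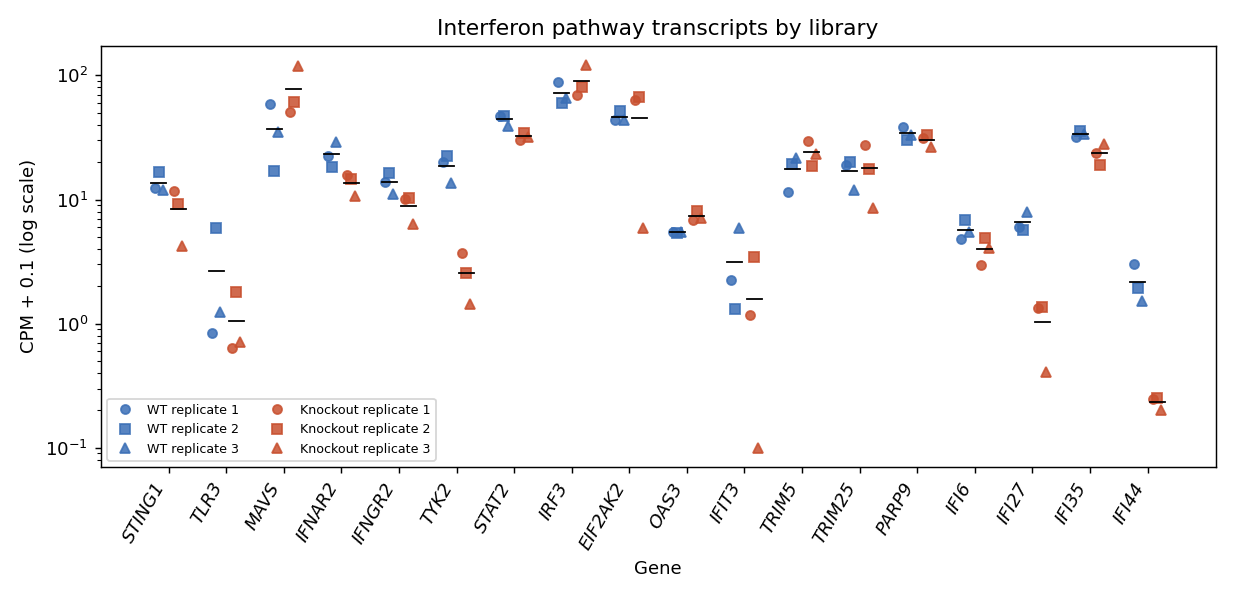
CPM + 0.1 (log axis) of 18 members in each library, with WT in blue, knockout in red, a marker shape for each replicate and a bar at each group mean. The groups of TYK2, IFI27 and IFI44 lie well apart, while EIF2AK2 has 5.83 CPM in knockout replicate 3 against 43.5 to 66.5 CPM in the other libraries.

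Of 7 tested antiviral effectors none passed edgeR's test, DESeq2 called none and no unadjusted p was under 0.05. EIF2AK2 encodes PKR, the kinase that halts translation when it binds double-stranded RNA. It was at 43.5, 51.9 and 43.6 CPM in WT and at 63.0, 66.5 and 5.83 CPM in the knockout. Knockout replicates 1 and 2 were above every WT library and replicate 3 was far below. The log2 fold change was -0.04 ± 0.73 with all libraries (edgeR adjusted p = 0.979). Without knockout replicate 3 it was 0.47 and passed as a rise (adjusted p = 0.0447, and at most 0.999 under other settings). Without WT replicate 2 it was 0.05, so EIF2AK2 had no settled direction. OAS3, which makes the second messenger that activates RNase L, was at 5.35, 5.27 and 5.41 CPM in WT and 6.74, 8.05 and 6.96 CPM in the knockout. It was the only tested member whose knockout values all lay above WT, and its log2 fold change of 0.44 ± 0.19 did not pass (edgeR adjusted p = 0.215). Its relative OAS2 was at 10.7 ± 2.24 and 6.98 ± 2.31 CPM (SD, n = 3 each), with overlapping groups.

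The dynamin-like GTPases MX1 and MX2, which block viral entry and nuclear import, were nearly level. MX1 was at 5.05 ± 1.22 and 4.77 ± 0.143 CPM, and MX2 at 1.85 ± 0.546 and 1.89 ± 0.376 CPM (SD, n = 3 each). Their log2 fold changes of -0.08 ± 0.26 and 0.03 ± 0.36 are small beside their errors. The IFIT proteins bind foreign RNA. IFIT3 had 38, 24 and 117 counts in WT and 22, 66 and 0 in the knockout, and IFIT1 had 0, 4 and 28 against 14, 15 and 0. Both varied more within groups than between them, and LIPA overlaps both on the other strand.

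In the ubiquitin and ISG15 group, 3 members were tested and none passed edgeR's test, with none at an unadjusted p under 0.05 and none called by DESeq2. TRIM25, a ubiquitin ligase of RNA sensing, was at 19.0, 19.98 and 11.9 CPM in WT and 27.6, 17.5 and 8.49 CPM in the knockout. TRIM5, which restricts incoming retroviral capsids, was at 11.5, 19.3 and 21.4 CPM in WT and 29.7, 18.4 and 23.3 CPM in the knockout. The groups overlapped for both, with log2 fold changes of 0.08 ± 0.42 and 0.45 ± 0.28. HERC6, a relative of the ISG15 ligase HERC5, was at 1.44 ± 0.487 and 1.91 ± 0.152 CPM (SD, n = 3 each). The mono-ADP-ribosyltransferases differed little. PARP9, the partner of DTX3L, was at 38.5, 30.3 and 33.1 CPM in WT and 31.4, 33.0 and 26.1 CPM in the knockout, a log2 fold change of -0.17 ± 0.15. PARP14 was at 18.8 and 20.8 CPM on average. Neither passed edgeR's test or DESeq2, and neither had an unadjusted p under 0.05.

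Of the 4 other induced genes tested, IFI27 and IFI44 fell and IFI6 and IFI35 did not pass. Of all genes tested, 4.63% were called lower, and 4 genes are too few to compare with that share. IFI44, a cytoplasmic protein induced by type I interferon, was at 2.90, 1.82 and 1.43 CPM in WT and 0.148, 0.151 and 0.102 CPM in the knockout. These are 51, 36 and 29 counts against 3, 3 and 2, so the knockout values stand at the floor of 3 counts a library. IFI44 fell by 3.87 ± 0.48 (SE) on the log2 scale (edgeR adjusted p = 0.0083, and 1.19e-05 to 0.0440 under other settings) and was called in all 6 fits without 1 library. These calls are descriptions, since IFI44 was above the low-count filter's cut-off in the WT libraries only. The summed counts were 116 in WT and 8 in the knockout. After scaling for library size, as for CPM, their ratio was 15.0, with 7.38 to 35.6 as the 95% interval (exact binomial, counting error alone). IFI44 lies on the plus strand of chromosome 1 from 78649796 to 78664078 (GRCh38), with no overlapping gene. PTGFR was the only other gene tested within 250 kb and was at 13.4 ± 1.87 and 12.6 ± 2.56 CPM (SD, n = 3 each).

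IFI27, a small mitochondrial protein that is among the most inducible interferon genes, was at 5.92, 5.63 and 7.87 CPM in WT and 1.23, 1.26 and 0.307 CPM in the knockout. Every WT library lay well above every knockout library. The knockout values are 25, 25 and 6 counts. Knockout replicate 3 was below the low-count filter's cut-off of 0.498 CPM, so IFI27 was above it in 3 WT and 2 knockout libraries. IFI27 fell by 2.79 ± 0.52 (SE) on the log2 scale, or 6.90-fold (edgeR adjusted p = 0.0250, and 5.70e-06 to 0.0979 under other settings). The call was lost without each WT replicate and without knockout replicates 1 and 2, while the log2 fold change stayed between -3.06 and -2.38. IFI27 lies on the plus strand of chromosome 14 from 94104836 to 94116698 (GRCh38), with no overlapping gene. Its neighbours and relatives IFI27L1 and IFI27L2 did not pass, with log2 fold changes of 0.34 ± 0.21 and -0.41 ± 0.51, and none of 5 tested genes within 250 kb was called by edgeR.

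IFI6, a relative of IFI27, was at 4.73, 6.69 and 5.36 CPM in WT and 2.85, 4.78 and 3.94 CPM in the knockout. The groups overlapped by the narrowest of margins, and the log2 fold change of -0.54 ± 0.28 did not pass (edgeR adjusted p = 0.296). IFI35 was at 32.1, 35.4 and 33.5 CPM in WT and 23.6, 18.8 and 27.8 CPM in the knockout. Its groups did not overlap, and its log2 fold change of -0.53 ± 0.17 missed the threshold (edgeR adjusted p = 0.115). IFI35 passed at -0.68 on the log2 scale when knockout replicate 3 was left out (adjusted p = 0.0293, and at most 0.296 under other settings).

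DESeq2, a second count test, called 6 of the 28 members lower and none higher, where it called 9.19% of all genes lower and 6.56% higher. The 6 were TYK2, IFI27 and IFI44 with IFNAR2, STAT2 and IFI35. Leaving out knockout replicate 3 gave 4 members lower (7.84% of all genes in that fit) and 1 higher (5.39% of all genes). These were TYK2, IFI27, IFI44 and IFI35, with EIF2AK2 the riser. Without WT replicate 2, IFI44 was the only member called. Leaving out WT replicates 1, 2 and 3 called 1.25%, 0.948% and 1.13% of all genes lower, and leaving out knockout replicates 1 and 2 called 1.77% and 1.64% lower. Every other setting with all 6 libraries called TYK2, IFI27 and IFI44 lower and no other member. Of all genes, those settings called lower 4.89% (limma-voom), 5.00% (DESeq2 size factors), 4.16% (total count per library), 4.31% (upper quartile scaling), 2.45% (no filter), 5.33% (1 CPM in 3 libraries), 3.95% and 3.78% (RPKM with 1 and 0.1 added) and 4.58% (robust dispersion).

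**Figure D4:**
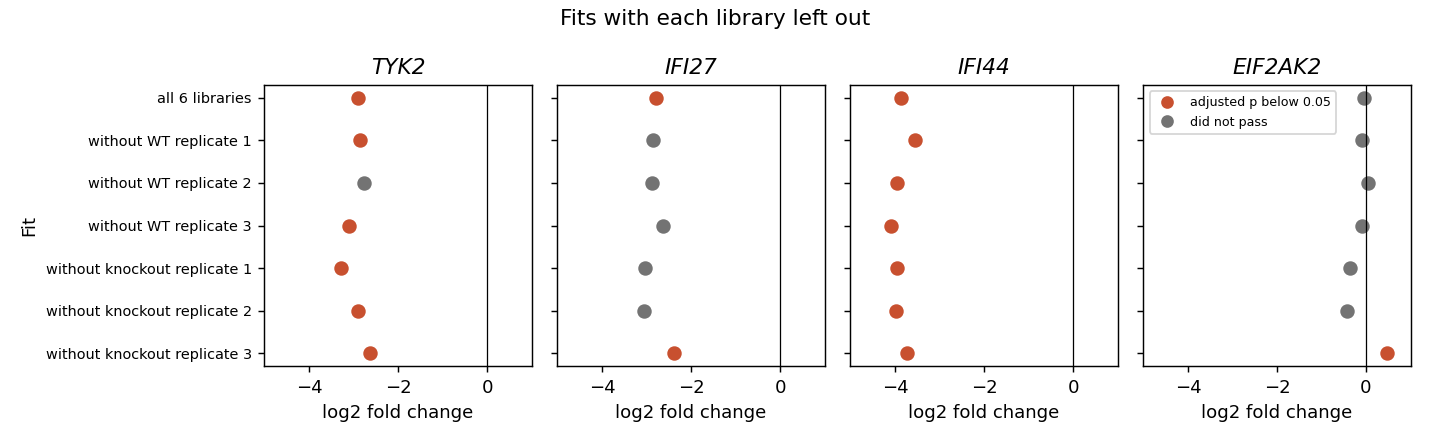
log2 fold change (knockout over WT) of 4 members with all 6 libraries and with each library left out, where red points passed an adjusted p of 0.05 in edgeR. IFI44 passed in every fit, TYK2 in 5 of 6 left-out fits and IFI27 in 1, and EIF2AK2 moved from -0.04 to 0.47 without knockout replicate 3. IFI44 was above the low-count filter's cut-off in the WT libraries only.

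Other genes of the pathway came from a list of 70, of which 58 had a row and 47 were tested. GBP2 fell, none rose and 46 did not pass edgeR's test, where 4.63% of all genes fell and 3.21% rose. GBP2, an interferon-induced GTPase that attacks pathogen vacuoles, was at 29.8, 23.0 and 26.4 CPM in WT and 13.0, 5.24 and 10.7 CPM in the knockout. The groups lay apart, with a log2 fold change of -1.45 ± 0.33 (edgeR adjusted p = 0.0447, and 4.94e-04 to 0.140 under other settings). The call was kept without knockout replicate 3 and lost without each of the other 5 libraries. With all 6 libraries the GBP2 call was lost when scaled by total count (adjusted p = 0.0524) or upper quartile (0.0504) and in limma on log2(RPKM + 0.1) (0.0553). The median log2 fold change of the 47 genes was 0.01, against 0.05 for all genes. The groups did not overlap in 14 of the 47 that lay lower (29.8%, background 17.1%) and 4 that lay higher (8.51%, background 16.5%). By point estimate the 47 were nearly even, with 23 below 0 and 24 above (46.3% of all genes were below 0).

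The most abundant gene of each kind by RPKM did not pass. IFNE, the only listed interferon gene with a row, was at 3.76, 4.46 and 4.23 CPM in WT and 3.39, 1.96 and 1.89 CPM in the knockout. Its groups did not overlap, and its log2 fold change was -0.78 ± 0.32 (edgeR adjusted p = 0.192). The other interferon genes listed, such as IFNB1 and IFNG, had no row, so their levels are not known here. IRF2BP2, a corepressor, was at 319 ± 12.4 and 250.2 ± 41.6 CPM (SD, n = 3 each). RNASEH2C, a subunit of the enzyme that degrades RNA in RNA-DNA hybrids, was at 26.9 ± 5.25 and 27.1 ± 15.2 CPM, with 44.7 CPM in knockout replicate 3. CNP was at 291 ± 9.74 and 269 ± 17.7 CPM. The calls of DESeq2 among these 47 were GBP2, IFI16, PML and LAP3 lower and IRF5 higher. DESeq2 called 9.19% of all genes lower and 6.56% higher. IFI16, a nuclear DNA sensor, was at 251 ± 9.19 and 148 ± 35.3 CPM, and its log2 fold change of -0.76 ± 0.18 lay at the edge of the threshold (edgeR adjusted p = 0.0505). IRF5, a factor of inflammatory signalling, was at 1.91 ± 1.02 and 7.66 ± 1.63 CPM, with a log2 fold change of 2.01 ± 0.47 (edgeR adjusted p = 0.0512). SAMD9L, a translation inhibitor named here after its values were seen, had 429, 331 and 509 counts in WT and 74, 0 and 65 in the knockout. It did not pass (edgeR adjusted p = 0.0988), and passed without knockout replicate 2 and in limma on log2 RPKM.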

How the data were processed

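Ribosome-depleted total RNA of 3 WT and 3 TOP3B knockout HT1080 libraries was measured with a directional kit, per the labels' protocols. The deposited tables hold estimated counts, given as whole numbers and used as deposited, and RPKM values per gene. Salmon 1.10.1 and hg19 appear, without a role, in the submitters' processing notes. The strand setting and annotation are not stated there. One entry named differently in the tables was left out.

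Members and lists were chosen with earlier results of these data known. After filterByExpr, counts went into edgeR 4.0.16 (quasi-likelihood F test with TMM normalization and Benjamini-Hochberg adjustment) in R 4.3.3. CPM values use TMM-scaled library sizes, and SEs were derived from the F statistic. Alternatives were DESeq2 1.42.0, limma-voom and limma-trend on log2 RPKM (limma 3.58.1), other scalings and filters, robust dispersion and each library left out. The tests were tried on simulated data. Genes named with values in every library were the called members, members called by DESeq2 or with a library left out, and in each role the most abundant by RPKM and the most different. Of the other pathway genes, the called one and the most abundant of each kind were named. MAVS, IFNGR2, OAS3, IFI6 and other members outside this rule were added after their values were seen, as were IFI16, IRF5 and SAMD9L. Positions are from GENCODE v29 (GRCh38), and no hg19 position is used.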

Additional observations from a re-analysis of the deposited data

How the results depend on the processing

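The falls of TYK2, IFI27 and IFI44 kept their direction in every alternative run, and with all 6 libraries they were called in every test, scaling and filter run. For IFI44 this is a description, since only its WT libraries were above the low-count filter's cut-off. Over all genes, edgeR called 1095, DESeq2 2199 and the fits without 1 library 223 to 1899. Members called lower numbered 3, with 6 in DESeq2 and 1 to 4 without 1 library. The share of all genes called lower in each setting is given above. Members called higher numbered 0, and 0 to 1 without 1 library. Among other pathway genes, 1 was called lower, which was GBP2, but IFI16 with the total count per library and SAMD9L on log2(RPKM + 0.1). The number was 4 in DESeq2, 3 on log2(RPKM + 1), 2 in limma-voom, with DESeq2 size factors, with no filter and at 1 CPM in 3 libraries, 0 with upper quartile scaling and 0 to 6 without 1 library. None was called higher by edgeR, and 1 (IRF5) in DESeq2, in limma-voom, with the total count per library, with upper quartile scaling, at 1 CPM in 3 libraries and on log2(RPKM + 1) or log2(RPKM + 0.1). Members whose groups did not overlap numbered 8 lower and 1 higher, against 17.1% and 16.5% of all genes. Without 1 library they numbered 8 to 13 lower and 1 to 5 higher. The share of all genes was not taken without 1 library, and smaller groups overlap less often. These last counts are therefore not read as a result about the members. The total count per library moved the median log2 fold change of all genes to 0.11 from 0.05. No paired analysis was possible because the knockout labels carry no replicate number. The cause of these changes was not tested.

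Of 28 tested members, 9 turned direction under an alternative, and none of these passed with all 6 libraries. EIF2AK2 passed in a fit where it had turned, without knockout replicate 3. EIF2AK2 ranged from -0.43 to 0.47 on the log2 scale and TLR3 from -2.13 to 0.022 without 1 library. TRIM25 was -0.032 in limma-voom and -0.39 to 0.41 without 1 library. IFNGR1, JAK1, IFIT1, IFIH1, MX1 and MX2 also turned, at most to 2.12 for IFIT1 without WT replicate 3. Among other pathway genes, RNASEH2C was -0.10 in limma-voom, -0.032 and -0.048 on log2(RPKM + 1) and log2(RPKM + 0.1), and -0.56 to 0.25 without 1 library. With no filter, 9 of the 12 members below it were tested and none was called, and the 3 at 0 counts could not be tested.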
